A study of Mus musculus with 4 samples.

Results

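The genes described here encode the machinery with which a cell makes sterols and fatty acids. They comprise 36 genes, listed by symbol for their place in these pathways, of the 24418 gene rows in the table. By role they were divided into the SREBP axis (5 genes), the mevalonate pathway with its isoprenoid products (7), the sterol branch from squalene to cholesterol (11), fatty acid synthesis (5), fatty acid desaturation and elongation (7), and the sterol transfer protein gene Stard4 (1). Regulatory T (Treg) cells, the Foxp3-expressing CD4+ T cells that restrain immune responses, were taken from lymphoid tissues of Foxp3yfpCre mice. In these mice the Foxp3 locus drives a fusion of yellow fluorescent protein and Cre recombinase, which marks Treg cells for sorting. All libraries shared this genotype, and the study used sex-matched mice of 8 to 12 weeks of age. Sorted cells were kept for 3 h with PBS (2 libraries) or with thymic stromal lymphopoietin (TSLP), an epithelial cytokine, at 100 ng/mL (2 libraries). Neither the labels nor the study's methods state whether replicates came from separate mice or cultures, so every p-value below measures the spread between these libraries, which may be technical.

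Sterol and fatty acid synthesis share a control system. The SREBP transcription factors are held in the endoplasmic reticulum with the sterol sensor SCAP by the INSIG proteins. When sterols run low, SCAP escorts SREBP to the Golgi, where proteases release the part that enters the nucleus, and the targets of SREBP-2 are mainly sterol genes and those of SREBP-1 mainly fatty acid genes. Dividing lymphocytes need both lipids for new membrane, and isoprenoids of the mevalonate pathway anchor small GTPases. In Treg cells this synthesis has been linked to suppressive function, which makes its response to TSLP a question these libraries can address at the level of RNA.

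The 4 libraries held 11328132 (PBS 1), 10724392 (PBS 2), 11761234 (TSLP 1) and 10271571 (TSLP 2) reads on genes. PBS 1 stood apart from the other 3, with values that were lower for long genes and higher for short ones. Markers of Treg cells (Foxp3, Il2ra, Ctla4, Ikzf2, Cd4 and Cd3e) were all present and summed to 3160 and 3875 RPM (reads per 1000000 reads on genes) in PBS 1 and 2 and to 3801 and 4036 in TSLP 1 and 2, with Ctla4 the most abundant. The defining marker Foxp3 was at 222 RPM in PBS 1 against 472 in PBS 2, 407 in TSLP 1 and 469.6 in TSLP 2, and Ikzf2 at 568 against 976, 996 and 953, so that both were lowest in PBS 1. The part of this difference in the values below was not tested. Of the 6 adipocyte markers, a cell type rich in these enzymes, Adipoq, Fabp4 and Cfd had no read in any library, and the sum over the list was 2.89 RPM in PBS 2 and 0 in the other 3 libraries. Myeloid markers summed to 17.7 and 11.9 RPM in the PBS libraries against 8.67 and 8.76 in the TSLP libraries, with Adgre1 at 0. Cd68 carried this order, at 15.4, 6.15, 5.02 and 1.56 RPM in PBS 1, PBS 2, TSLP 1 and TSLP 2, whereas Lyz2 was at 0.088, 4.01, 3.15 and 3.89. B cell markers, led by Cd79b, summed to 0.618 and 10.4 for PBS 1 and 2 and to 5.02 and 9.35 for TSLP 1 and 2. The 5 markers of conventional T cells summed to 864, 1064, 1055 and 1040 RPM, and those of CD8 T cells to 13.4, 7.83, 8.84 and 11.97, in the same order of libraries. Tcf7, Bach2 and Il7r made up most of the conventional T cell sum, with Tcf7 at 471, 568, 506 and 563 RPM. Cd40lg was at 75.3, 33.8, 90.6 and 50.4 RPM, and Dapl1 was at 3.32 RPM or less. Whether the Treg cells themselves carried these markers was not tested. The part of other cells in the values below was not tested either. Fewer cells of a type and less RNA per cell cannot be told apart in these bulk libraries.

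No gene of this machinery passed the test for a difference between TSLP and PBS. Values are normalized counts, that is, reads divided by the size factor of the library, and log2 fold changes are on the scale of log2(normalized count + 1). Of the 36 genes, 34 reached a normalized count of 10 in at least 2 libraries and were tested, and the other 2 were the desaturase genes Scd1 and Fads2. By limma over all 11392 genes tested, 0 of the 34 had a Benjamini-Hochberg adjusted p under 0.05, against a background of 0%. Neither edgeR nor DESeq2 on the recovered reads gave a gene with an adjusted p under 0.05. At an unadjusted p under 0.05 limma counted 0 of the 34 members and 192 of all genes (1.69%), while edgeR and DESeq2 each counted 234 genes. By their estimates 14 members were higher with TSLP and 20 lower, with a median of -0.021 on the log2 scale beside 0.012 for all genes tested. The split stayed at 14 and 20 without TSLP 1 (median -0.050). It turned to 20 higher and 14 lower without PBS 1 (median 0.088) and without TSLP 2 (median 0.10), and to 18 and 16 without PBS 2 (median 0.040).

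With TSLP both values exceeded both PBS values for 5 of the 34 genes, namely Srebf2, Idi1, Hsd17b7, Dhcr7 and Fasn. The background of such genes was 14.5% of all genes tested. With TSLP both values were below both PBS values for 2 genes, Mvd and Ebp, beside a background of 14.4%. With 2 libraries in a group the intervals were wide. They rest on limma variances that borrow from all genes tested, and not only on the spread of the gene itself. They therefore bound a change only under that shared variance and for the spread between these libraries. The 95% interval of the log2 fold change held 0 for all 34 genes, and for 17 of them it lay wholly within a 2-fold change either way.

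**Figure D1:**
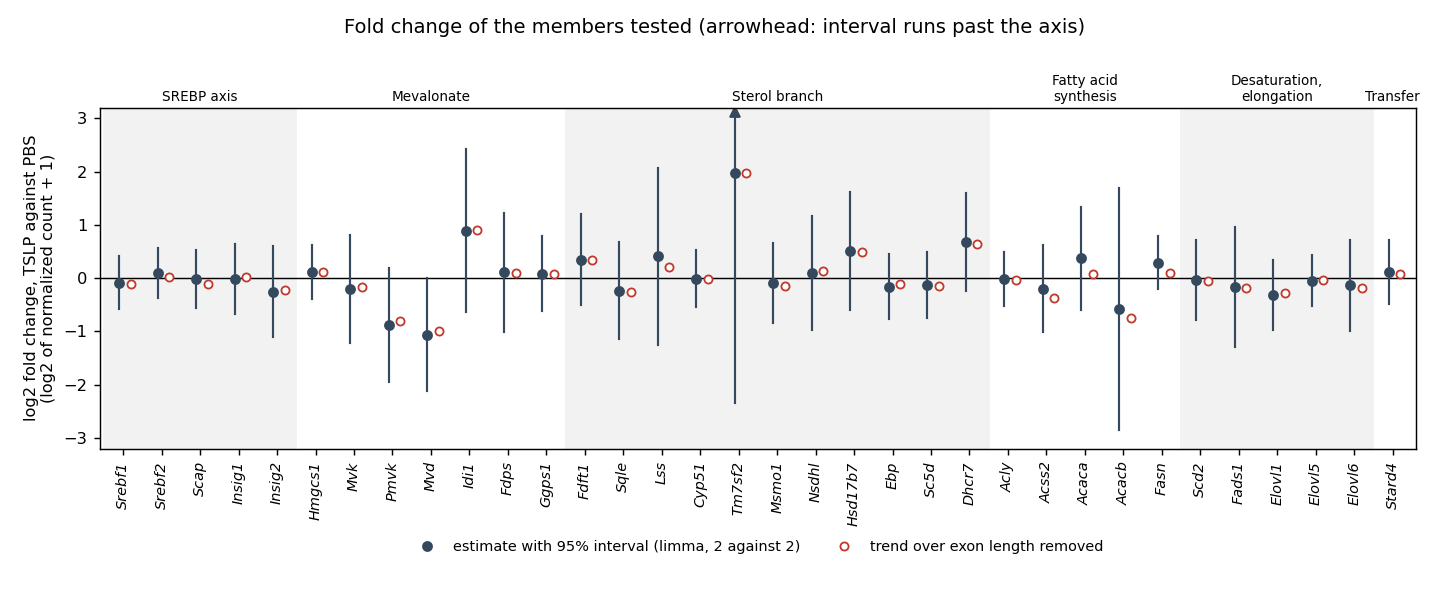
Log2 fold change of each of the 34 genes tested, TSLP against PBS, with its 95% interval from limma (2 libraries against 2), in order of role. Open circles give the estimate after the trend of each library over exon length was removed, and every interval holds 0.

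Every gene of the SREBP axis had reads in all 4 libraries, and no level over all genes is set beside them here. Per kilobase of merged exons, as a mean over the 4 libraries, Srebf2 (encoding SREBP-2) stood at 488 normalized counts and Srebf1 (SREBP-1) at 359. Srebf2 exceeded Srebf1 in every library, by a ratio of 1.22 to 1.54. Insig1, itself a sterol-regulated retention factor, stood at 481 per kilobase and its paralog Insig2 at 103, with a ratio between 3.46 and 7.40 across libraries. The order of Insig1 and Insig2, and the size of both ratios, rest on the length used, as given with the levels below. Scap, the sterol sensor and escort, was at 145.

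Srebf2 (mm10 chr15:82147181-82205379) had normalized counts of 3341 and 3432 under PBS and of 3692 and 3564 under TSLP. The groups did not overlap, yet the estimated difference on the log2 scale was 0.10 (SE 0.21, limma unadjusted p = 0.645). It came to 0.013 once the trend over exon length was removed, and it was 0.074 without TSLP 1 and 0.12 without TSLP 2. Srebf1 gave 1944 and 2214 with PBS and 2113 and 1814 with TSLP, so that its TSLP values lay on both sides of the lower PBS value. Insig1 ranged from 1108 in TSLP 2 to 1893 in TSLP 1, which placed both its extremes within the TSLP group. Insig2 was at 528 in PBS 1 and between 269 and 348 in the other 3 libraries, and its estimate of -0.25 turned to 0.23 without PBS 1. Scap was at 942 and 1239.6 with PBS and 1015 and 1115 with TSLP, inside the PBS range. Estimates over the 5 genes of the axis had a median of -0.023, and 1 of them was above 0. The median was 0.080 without PBS 1 and -0.12 without TSLP 1, and it was also -0.12 with the length trend removed.

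Promoter sequence gives the setting in which these genes are read. SREBP binds sterol response elements and acts beside the factors NF-Y and Sp1. RefSeq promoter windows (assembly GRCm38.p6, 250 bases before to 50 after each listed start) were found for 29 of the 36 genes, in 38 windows. The motifs were searched on both strands as TCACNCCAC for the sterol response element, CCAAT for NF-Y, GGGCGG for Sp1 and CACGTG for the E-box. The NF-Y letters occurred in 26 of the 38 windows (68.4%), beside 37.4% of all 32851 windows. The Sp1 letters occurred in 27 windows (71.1%, against 35.7% of all) and the E-box in 7 (18.4%, against 7.15%). The sterol response element as spelled here was found in 1 window (2.63%, against 1.24% of all), that of Hmgcs1. Such matches describe letters in a window and not binding, and the windows of all genes include those of genes not used by T cells.

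The Hmgcs1 stretch is shown because it holds the one match to the sterol response element, which begins at base -137 from the listed start. Capitals mark that element and, upstream of it, an NF-Y match on the opposite strand.
Hmgcs1, chr13:119690154-119690282 (plus strand): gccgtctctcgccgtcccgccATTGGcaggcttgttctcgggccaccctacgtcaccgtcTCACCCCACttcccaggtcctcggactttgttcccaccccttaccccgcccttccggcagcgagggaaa

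The 100 bases before the listed start are shown for 5 of the 7 genes whose groups did not overlap, namely those with more than 1 NF-Y match in this stretch. Of the other 2, Ebp has a single match there and Srebf2 has none. More than 1 match also occurs in genes whose groups overlapped, namely Mvk with 3, and Msmo1, Elovl5 and 1 start of Insig2 with 2 each. The median log2 fold change was -0.018 for the 25 tested members with NF-Y letters in a window and -0.023 for the 3 without. A link of these letters with the order of the groups was not tested. Capitals mark CCAAT or its reverse complement ATTGG, and in Fasn a pair of matches overlaps. Dhcr7 has 3 listed starts, of which the one with NF-Y matches is given.
Mvd, chr8:122443423-122443522 (minus strand): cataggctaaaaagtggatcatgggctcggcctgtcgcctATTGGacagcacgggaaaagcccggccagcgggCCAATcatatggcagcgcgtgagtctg
Idi1, chr13:8885506-8885605 (plus strand): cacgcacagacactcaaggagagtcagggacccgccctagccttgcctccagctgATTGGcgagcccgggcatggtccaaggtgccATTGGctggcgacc
Dhcr7, chr7:143830114-143830213 (plus strand): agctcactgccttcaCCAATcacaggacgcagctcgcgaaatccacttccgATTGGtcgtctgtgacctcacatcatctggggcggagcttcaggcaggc
Hsd17b7, chr1:169969206-169969305 (minus strand): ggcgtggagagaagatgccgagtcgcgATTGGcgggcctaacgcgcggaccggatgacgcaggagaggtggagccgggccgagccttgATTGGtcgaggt
Fasn, chr11:120824548-120824647 (minus strand): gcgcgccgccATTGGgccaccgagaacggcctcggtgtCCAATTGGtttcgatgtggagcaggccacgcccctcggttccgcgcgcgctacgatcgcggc

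**Figure D2:**
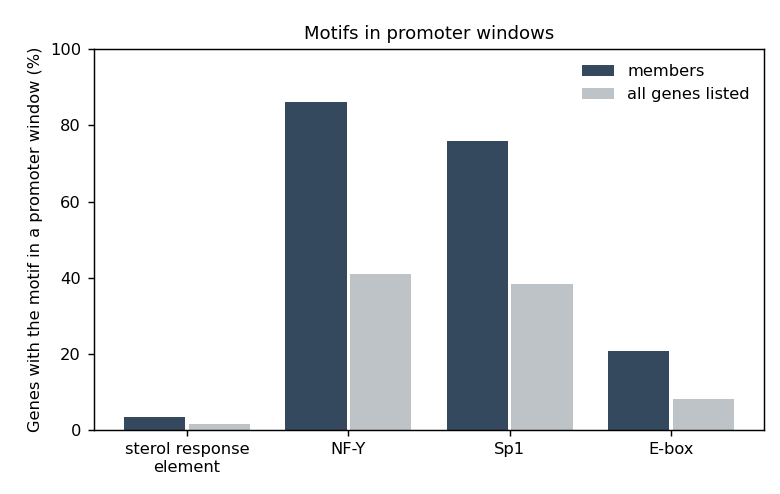
Percent of genes with each motif in at least 1 promoter window, for the 29 members listed in RefSeq (dark bars) and for all 27025 genes listed (light bars). NF-Y letters were found in 86.2% of the members and in 41.1% of all genes, and the sterol response element in 3.45% and 1.44%.

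Of the mevalonate pathway, Hmgcs1, the cytosolic synthase that supplies HMG-CoA, was the most abundant gene at 336 normalized counts per kilobase. Its values were 1491 and 1462 with PBS and 1778 and 1446 with TSLP, so that the TSLP libraries bracketed the PBS ones. Ggps1 was likewise bracketed, at 366 and 360.2 with PBS and 321 and 461 with TSLP. The kinase genes Mvk and Pmvk followed at 183 and 148 per kilobase, and Ggps1, which makes the geranylgeranyl donor for GTPases, stood at 79.9. Mvd, Fdps and Idi1 were lower, at 69.9, 47.9 and 15.9. With TSLP 4 of the 7 estimates were higher and 3 lower, around a median of 0.083 on the log2 scale. That median was -0.58 without PBS 2 and 0.13 without PBS 1.

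Mvd (chr8:122433601-122443422) encodes the decarboxylase that turns mevalonate diphosphate into isopentenyl diphosphate. Its normalized counts were 199 and 154 under PBS and 75.4 and 91.97 under TSLP, from 205, 154, 80 and 88 reads. Both TSLP values lay below both PBS values, by -1.06 on the log2 scale (SE 0.47, limma unadjusted p = 0.0501, adjusted p = 0.9999). This was the smallest unadjusted p among the 34 genes. Across the 12 ways of fitting all 4 libraries its p ran from 0.0237 to 0.0850 and was under 0.05 in 5. The estimate stayed between -1.24 and -0.88 when any 1 library was left out. No 50-base window of its transcripts recurred in another annotated gene.

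Idi1 (chr13:8885501-8892451), the isomerase of the next step, had the opposite order. Its normalized counts were 40.7 and 36.02 with PBS and 86.7 and 59.6 with TSLP. On the log2 scale the difference was 0.89 (SE 0.68, limma unadjusted p = 0.222), with p from 0.0493 to 0.355 over the 12 fits. It was 0.62 without TSLP 1 and 1.16 without TSLP 2. Fewer than 100 reads were behind each value, and 25.3% of the 50-base windows of its transcripts also occur in other genes, chiefly Gm13502. How the counting split such reads was not tested.

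Mvk, Pmvk and Fdps differed widely between the PBS libraries. Mvk, which phosphorylates mevalonate, was at 824 in PBS 1 and 287 in PBS 2, and at 415 and 429.5 with TSLP. Its estimate of -0.20 was 0.56 without PBS 1 and -0.96 without PBS 2. Pmvk, the next kinase, was at 475 (PBS 1) and 200.1 (PBS 2) against 138 (TSLP 1) and 201 (TSLP 2). Its log2 fold change of -0.89 (SE 0.47, limma unadjusted p = 0.0928) became -0.27 without PBS 1 and -1.51 without PBS 2. Fdps, the farnesyl diphosphate synthase, was at 296 and 114 with PBS and 210.1 and 186 with TSLP, and 26.2% of its windows recur in other genes. The estimate of 0.11 was 0.79 without PBS 1 and -0.58 without PBS 2. In each of these genes PBS 1 was the highest of the 4 libraries.

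The sterol branch was uneven in level. By merged exons Cyp51, the lanosterol demethylase, led at 434 normalized counts per kilobase, followed by Ebp at 209 and Sc5d at 163, both of which act on the sterol ring system late in the branch. Msmo1 (65.5), Fdft1 (63.9), Sqle (53.4) and Nsdhl (49.2) formed a middle group, where Fdft1 encodes squalene synthase and Sqle squalene epoxidase. Dhcr7 (41.9) and Hsd17b7 (22.3) were lower, and Tm7sf2 (9.30) and Lss (7.11), the latter encoding lanosterol synthase, were the lowest. Of the 11 estimates 6 were higher with TSLP and 5 lower, and their median was 0.097 on the log2 scale. It was -0.083 without PBS 2 and 0.20 without PBS 1.

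Dhcr7 (chr7:143823145-143848410), which completes cholesterol by reducing 7-dehydrocholesterol, had normalized counts of 145 and 229 with PBS and 368 and 232 with TSLP. The groups parted by the narrow gap between PBS 2 and TSLP 2. The estimate was 0.68 on the log2 scale (SE 0.41, limma unadjusted p = 0.133), and it was 0.34 without TSLP 1 and 1.009 without TSLP 2. Hsd17b7 (chr1:169949535-169969241), a sterol ketone reductase, was at 109.5 and 79.0 with PBS and at 139 and 126 with TSLP. The difference of 0.51 (SE 0.49, limma unadjusted p = 0.325) was close to its standard error. It was 0.28 without PBS 2 and 0.74 without PBS 1. Ebp (chrX:8185329-8193512), the sterol isomerase, was at 521 and 497 with PBS and 426 and 485 with TSLP. Its change was -0.16 on the log2 scale (SE 0.27, limma unadjusted p = 0.558), and it was -0.070 without TSLP 1 and -0.26 without TSLP 2.

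Other genes of the branch showed how far the PBS libraries stood apart. Tm7sf2, a sterol reductase gene, had 0 reads (PBS 1) and 80 reads (PBS 2) against 19 (TSLP 1) and 63 (TSLP 2). The estimate of 1.98 on the log2 scale carried an SE of 1.92 and rests on the 0 in PBS 1, where it depends on the pseudocount. It was 0.97 with a pseudocount of 5, 0.061 by edgeR, 1.82 by edgeR with a replicate block and 0.064 by DESeq2. The same estimate was -1.19 without PBS 1 and 5.15 without PBS 2. Further, 9.87% of its windows also occur in the neighbouring gene Vps51. Lss was at 115 (PBS 1) and 31.02 (PBS 2) against 73.5 (TSLP 1) and 86.7 (TSLP 2). Its estimate of 0.41 was 0.13 by edgeR and 0.39 by edgeR with a replicate block. For Lss the value was 1.336 without PBS 1 and -0.53 without PBS 2. Sqle, which catalyses an oxygen-dependent and often rate-setting step, was at 441 in PBS 1 and at 217, 284 and 243 in PBS 2, TSLP 1 and TSLP 2, and its estimate of -0.24 turned to 0.27 without PBS 1. Cyp51 was steadier, at 2211 and 1655 with PBS and 2041 and 1761 with TSLP, and its interval ran from -0.55 to 0.52. Msmo1 (325 to 514 with PBS, 345 to 425 with TSLP) and Nsdhl (103 to 172 and 126 to 160) had the TSLP values inside the range of the PBS values. Sc5d spanned 616 to 915 within TSLP, wider than its PBS values of 795 and 849. Fdft1 was at 188 and 290.1 with PBS and 252 and 351 with TSLP. Its estimate of 0.35 was 0.035 without PBS 1 and 0.66 without PBS 2, and 26.5% of its windows also occur in other genes, Ctsb and Gm6781.

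Acly and Fasn were the abundant genes of fatty acid synthesis. Acly, the ATP citrate lyase that makes cytosolic acetyl-CoA, stood at 673 normalized counts per kilobase, and Fasn, the fatty acid synthase, at 376. Acss2, which makes acetyl-CoA from acetate, was at 37.5. The acetyl-CoA carboxylase genes were low by merged exons, with Acaca at 10.98 and Acacb, the form tied to mitochondria and fat oxidation, at 2.92. Per kilobase of merged exons Acaca exceeded Acacb in every library, by a ratio of 1.91 to 9.49.

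Fasn (chr11:120805846-120824547) had normalized counts of 3497 and 3904 with PBS and of 4889 and 4183 with TSLP. Both TSLP libraries were higher, by 0.29 on the log2 scale (SE 0.22, limma unadjusted p = 0.216) and an interval from -0.20 to 0.79. Without TSLP 1 the difference was 0.18 and without TSLP 2 it was 0.40. After the trend over exon length was removed the value was 0.096. Acly gave 3169 and 4005 with PBS and 3514 and 3523 with TSLP, so that the TSLP values lay between the PBS values. The estimate of -0.018 had an interval from -0.52 to 0.48. Acaca was at 145 and 176 with PBS and 269 and 159 with TSLP, its estimate went from 0.37 to 0.068 when the length trend was removed, and 30.4% of its windows recur in other genes, mainly Gm5182. Acss2 spanned 258 to 465 within TSLP, wider than the 354 to 447 of PBS. Acacb had at most 52.0 normalized counts in any library. The median estimate of the 5 genes was -0.018, turned to 0.23 without TSLP 2 and was -0.031 without PBS 1.

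Desaturation and elongation held the most abundant gene of all 36. Elovl5, an elongase of polyunsaturated fatty acids, was at 1428 normalized counts per kilobase, and its values were 5085 and 5135 with PBS and 5114 and 4783 with TSLP. The 95% interval of its log2 fold change ran from -0.53 to 0.44 around -0.047. Elovl1, which extends saturated chains to very long ones, was at 286 per kilobase and Elovl6, which elongates palmitate, at 48.7. Elovl1 gave 1084 and 669 with PBS and 738 and 631 with TSLP, and Elovl6 gave 398 and 256 with PBS and 367 and 231 with TSLP. In both genes the TSLP values overlapped those of PBS. Per kilobase of merged exons Elovl5 exceeded Elovl6 by a ratio of 23.3 to 37.8 across the libraries and Elovl1 by 3.63 to 5.94.

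Among the desaturase genes Scd2 (75.7 per kilobase) and Fads1 (41.1) were expressed, while Fads2 had no read in any of the 4 libraries, a count that allows up to 0.255 to 0.292 RPM depending on the library. Under PBS Scd1 had 29 and 6 reads, under TSLP 1 and 0, and it was below the minimum for testing. Because of the 0 in TSLP 2, no fold is given. The 4.56% of its windows that recur in other genes fall mainly in Scd3, Scd2 and Scd4. Scd2, the paralog with the higher level, was at 349 and 486 with PBS and 487 and 331 with TSLP, so that the TSLP values bracketed those of PBS. Fads1 was at 125 and 310.2 with PBS and 151 and 205 with TSLP. The 5 tested genes of this role were all lower by their estimates, from -0.32 for Elovl1 to -0.036 for Scd2, yet none had both TSLP libraries below both PBS libraries. Their median of -0.13 became 0.0011 when TSLP 2 was left out and -0.31 when TSLP 1 was left out.

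Stard4, which moves cholesterol between membranes, was at 519.5 and 515 with PBS and 514 and 608 with TSLP. The estimated change was 0.11 on the log2 scale (SE 0.26, limma unadjusted p = 0.679).

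**Figure D3:**
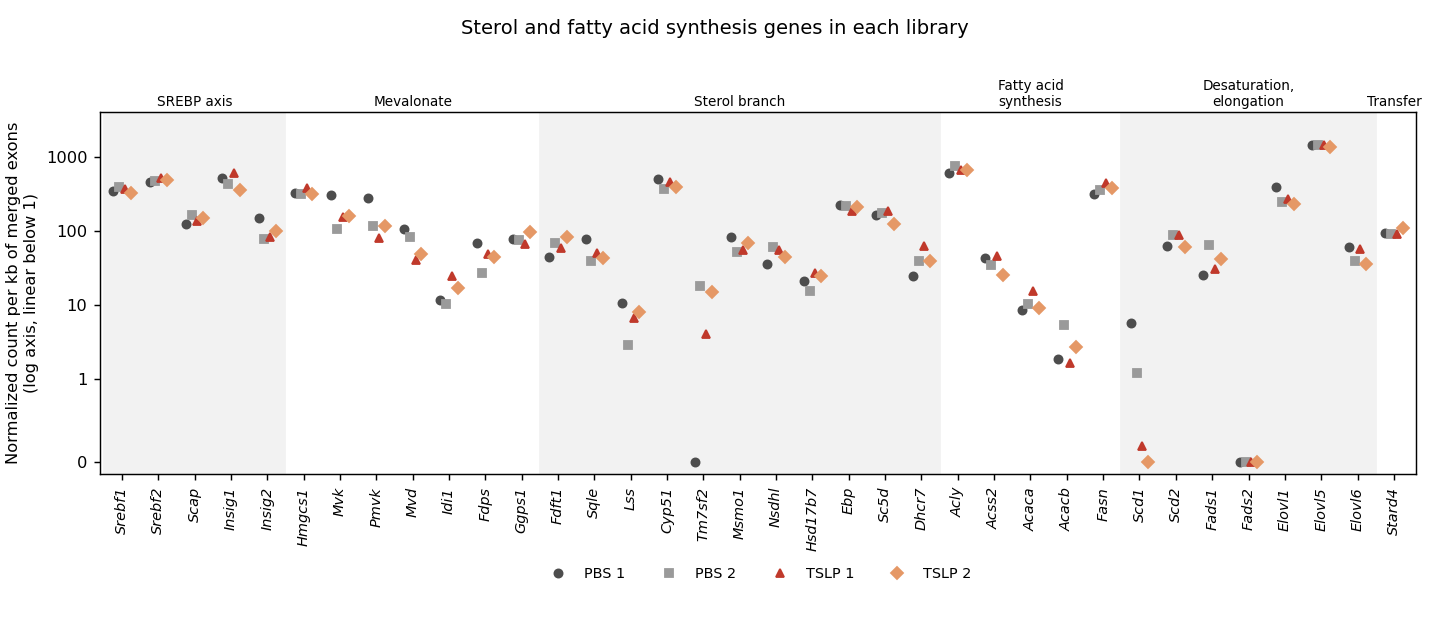
Normalized count per kilobase of merged exons for each of the 36 genes in each library, on a log axis that is linear below 1, in order of role. Elovl5 was the highest of the genes at 1428 on average, and Fads2 was at 0 in every library.

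In all, 15 of the 36 genes stood at 100 or more normalized counts per kilobase and 5 were under 10. The order depends on the length used. With the longest protein-coding transcript of each gene in place of all merged exons 20 genes reached 100, and with the median protein-coding transcript 24 did, but Elovl5 was first by each length and Scd1, Acacb and Fads2 were among the lowest 3. Acss2 ranked 28 by merged exons and 18 by the longest transcript, and Fdps 25 and 16. The median transcript, which is short where many short coding transcripts are annotated, moved some genes further. By it Acaca stood at 211 per kilobase in place of 10.98, Insig2 (643) exceeded Insig1 (551), and in the sterol branch Msmo1 (624) exceeded Cyp51 (488) and Sc5d (473) exceeded Ebp (425). The longest transcript kept Insig1 above Insig2 and Cyp51 above the rest of its branch. Ratios between genes given above are those of merged exons and also move with the length. By the median transcript Acaca and Acacb stood at 211 and 3.32, Srebf2 and Srebf1 at 1465 and 498, and Elovl5 and Elovl6 at 7882.5 and 138.

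The median absolute log2 difference was 0.442 between the PBS libraries, 0.291 between the TSLP libraries and 0.164 between the group means, over the 34 genes tested. Over all genes tested the same medians were 0.48, 0.307 and 0.258. A mean of 2 libraries varies less than a single library, so the value between group means is not directly comparable with the other 2. PBS 1 and PBS 2 differed by more than 1.5-fold for 15 of the 34 genes (44.1%, beside 42.4% of all genes tested) and TSLP 1 and TSLP 2 for 7 (20.6%, beside 28.6%). The group means differed by more than that for 5 (14.7%, beside 22.1%). Of these, Tm7sf2 had no such difference by edgeR without a replicate block or by DESeq2. With the block edgeR put its log2 fold change at 1.82. The group difference was larger than both replicate differences for 6 genes (17.6%, beside 16.7% of all genes). On leaving out each library in turn, the sign of the log2 fold change changed for 25 of the 34 genes. It held for the other 9, which were Srebf2, Pmvk, Mvd, Idi1, Fdft1, Hsd17b7, Ebp, Dhcr7 and Fasn. The size was not equal across these fits, as the values given for them show. The sign could not change for the 7 whose groups did not overlap, that is, all but Pmvk and Fdft1. For these 7 the kept sign adds nothing to the lack of overlap, and the share over all genes is not given here.

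**Figure D4:**
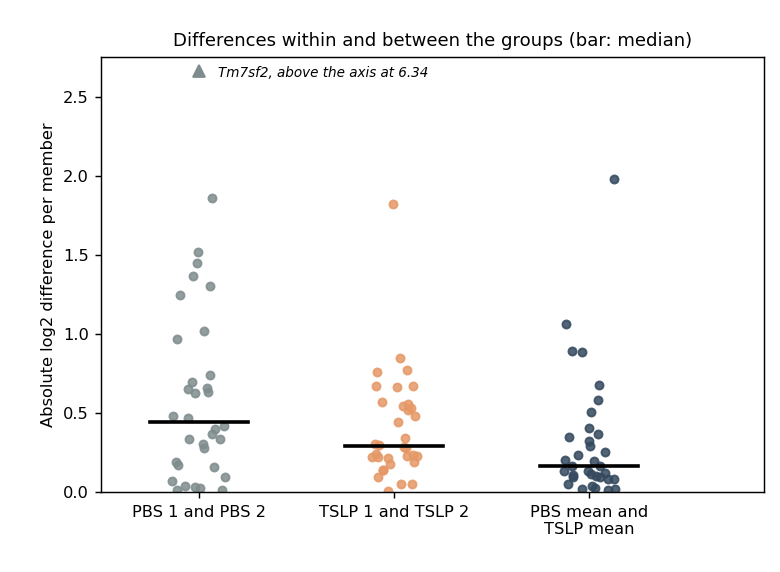
Absolute log2 difference of each of the 34 genes tested between the PBS libraries, between the TSLP libraries, and between the group means, each point a gene and each bar a median. The medians were 0.442, 0.291 and 0.164, and Tm7sf2 within PBS lies above the axis.

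PBS 1 was the highest of the 4 for 12 of the 34 genes, TSLP 1 for 11, PBS 2 for 8 and TSLP 2 for 3, and the lowest was PBS 1 for 10, PBS 2 and TSLP 2 for 9 each and TSLP 1 for 6. Over all genes tested the highest was PBS 1 for 32.4%, PBS 2 for 23.3%, TSLP 1 for 20.8% and TSLP 2 for 23.4%, and the lowest was PBS 1 for 35.6%, PBS 2 for 21.8%, TSLP 1 for 20.4% and TSLP 2 for 22.2%. The libraries differed with gene length. Among 2635 abundant genes, the rank correlation between exon length and a library's deviation from the mean of the 4 was -0.659 for PBS 1, 0.571 for PBS 2, 0.40 for TSLP 1 and 0.307 for TSLP 2, and for the difference of TSLP minus PBS it was 0.524. These correlations are across genes, which share the libraries and are not independent replicates. Removing this trend lowered the estimates of the long genes of the set, as given above for Fasn, Acaca and Srebf2, and also of Lss (from 0.41 to 0.21) and Acss2 (from -0.20 to -0.38). With the trend removed 3 of the 34 genes (8.82%, beside 13.8% of all genes under this setting), in place of 5, had both TSLP values above both PBS values, namely Dhcr7, Hsd17b7 and Idi1. Both were below for 3 genes (8.82%, beside 15.3%), in place of 2, and these were Mvd, Pmvk and Srebf1. How far this trend entered the values of the members was tested only by its removal.

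Of 41 further genes of the same pathways, 32 were tested. Of these 20 were higher by their estimates and 12 lower, and the median was 0.10 on the log2 scale, or 0.027 with the length trend removed. Both TSLP libraries were above both PBS libraries for 8 and below for 4 of the 32, beside the backgrounds of 14.5% and 14.4% given above. A single gene had an unadjusted p under 0.05, Erlin1, and it was higher with TSLP, as were 0.772% of all genes at this limit. Erlin1 encodes an endoplasmic reticulum protein that takes part in the sterol-regulated turnover of membrane proteins and in restraint of SREBP. Under PBS it had 37 and 56 reads and under TSLP 122 and 171, with no overlap of the groups. The difference was 1.65 on the log2 scale (SE 0.59, limma unadjusted p = 0.0201, adjusted p = 0.9999), and the unadjusted p by edgeR was 0.0163.

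The 4 genes with both TSLP values below both PBS values were Pdss2 (-0.98 on the log2 scale), Mcat (-0.73), Faf2 (-0.28) and Npc2 (-0.23), which are named for completeness after their values were seen. The next smallest p-values among genes without overlap belonged to genes that were higher with TSLP. Dhdds, a subunit of the enzyme that starts dolichol synthesis, had 295 and 318 normalized counts with PBS and 497 and 446 with TSLP (0.62 on the log2 scale, limma unadjusted p = 0.0613). Oxsm, the ketoacyl synthase of mitochondrial fatty acid synthesis, had 58.2 and 66.0 with PBS and 106 and 145 with TSLP (0.99, limma unadjusted p = 0.101). Nfyb, encoding an NF-Y subunit, had 563 and 370.2 with PBS and 633 and 660.5 with TSLP (0.50, limma unadjusted p = 0.121). Sp1, the gene of the Sp1 factor, had 2656 and 3190 with PBS and 3599.7 and 3657 with TSLP (0.32, limma unadjusted p = 0.176), and its value was 0.19 after the length trend was removed. Elovl7, an elongase gene, had 0 and 12 reads under PBS and 25 and 23 under TSLP, and the SE of its fold change was 1.77. None of these passed the adjusted threshold, and the p-values are unadjusted ones from limma.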

How the data were processed

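Total RNA of sorted Treg cells was sequenced as 50-base single-end reads from directional libraries. The authors mapped reads to mm10 with HISAT2, counted genes with HTSeq and used DESeq2, per the labels and methods. The RNA extraction kit is named differently in the labels and in the methods. The annotation and strand setting of the counting are not given in the sources used here. The deposited signal values are counts that each library's size factor divides, and 100% of them became whole reads (tolerance 0.01) after multiplication by factors of 1.03 (PBS 1), 0.999 (PBS 2), 1.06 (TSLP 1) and 0.957 (TSLP 2). In 27 rows a date stood in place of a gene name.

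Groups came from the sample titles. The members, role lists and tests were chosen with earlier results of these data known. TSLP was compared with PBS by limma 3.58.1 (R 4.3.3) with a mean-variance trend on log2(normalized count + 1), over 11392 genes that reached 10 normalized counts in 2 or more libraries, with Benjamini-Hochberg adjustment. Alternatives were edgeR 4.0.16 and DESeq2 1.42.0 on recovered reads, other scalings, filters of none and 50, a pseudocount of 5, a replicate block, removal of each library's loess trend over exon length (span 0.5) and leaving out each library. Both lengths other than merged exons were added after the data were seen. Scripts were tested on simulated data. Values were given in full for members with an unadjusted p under 0.05 or without overlap of the groups, and for other pathway genes with an unadjusted p under 0.05 or, up to 6, without overlap. Merged exon lengths and transcripts came from GENCODE M21, where 23348 of the 24418 names were found. The floor for a gene with no read was 3 reads, which covers counting error only.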

Additional observations from a re-analysis of the deposited data

How the results depend on the processing

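No alternative gave a gene with an adjusted p under 0.05 among the 15 run, and the smallest adjusted p was 0.0643, by limma without a mean-variance trend. Over the 11 alternatives that used all 4 libraries, 6 of 373 estimates for single genes changed sign, all near 0. Insig1 became 0.024 by edgeR, 0.025 by DESeq2 and 0.012 with the length trend removed (with or without the replicate block), and Fdps became -0.051 by edgeR and -0.049 by DESeq2. The count of the 34 genes with an unadjusted p under 0.05, 0 as reported, was 1 by edgeR, on TMM-scaled values and at a minimum of 50 (Mvd each time) and 2 without a trend (Mvd and Idi1). The count over all genes, 192, became 427 without a trend, 358 with no filter on low counts and 294 with the length trend removed and a replicate block. Removing the length trend left 3 genes with both TSLP libraries above PBS (8.82%, beside 13.8% of all genes) and 3 below (8.82%, beside 15.3%), with or without the block. The count below was also 3 by edgeR, with or without a replicate block, and by limma on TMM-scaled values. With no filter on low counts it was 3 of 35 members.

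Nothing in the labels says that a replicate number marks a shared source, so the libraries share only a number. The correlation of deviations between same-numbered libraries was 0.0124 over 11116 genes and 0.0931 over the 2716 with a mean of at least 1000. With the replicate block limma counted 258 genes and 0 members at an unadjusted p under 0.05, and edgeR 215 genes and 1 member. A block of so few libraries has little left to estimate the spread.

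Leaving out 1 library at a time assumes that the lone library of a group varies like the others. The median of the 34 estimates then ran from -0.050 (without TSLP 1) to 0.10 (without TSLP 2), members with an unadjusted p under 0.05 from 0 to 4 (without PBS 2), and all genes so counted from 79 (without TSLP 2) to 1858 (without PBS 2). Genes with TSLP above PBS without overlap numbered 8 to 12 (23.5% to 35.3%, beside 28.6% to 38.5% of all genes under the same settings) and those below 6 to 12 (17.6% to 35.3%, beside 28.2% to 37.8%). The estimates that changed sign ran as follows on the log2 scale: Srebf1 -0.19 to 0.026, Scap -0.22 to 0.17, Insig1 -0.40 to 0.37, Insig2 -0.74 to 0.23, Hmgcs1 -0.029 to 0.27, Mvk -0.96 to 0.56, Fdps -0.58 to 0.79, Ggps1 -0.18 to 0.34, Sqle -0.74 to 0.27, Lss -0.53 to 1.336, Cyp51 -0.22 to 0.20, Tm7sf2 -1.19 to 5.15, Msmo1 -0.42 to 0.24, Nsdhl -0.27 to 0.47, Sc5d -0.42 to 0.15, Acly -0.19 to 0.15, Acss2 -0.62 to 0.23, Acaca -0.010 to 0.75, Acacb -1.30 to 0.15, Scd2 -0.31 to 0.24, Fads1 -0.82 to 0.49, Elovl1 -0.67 to 0.028, Elovl5 -0.095 to 0.0011, Elovl6 -0.47 to 0.20 and Stard4 -0.0084 to 0.23. The cause was not tested. With 2 libraries a group and fewer than 100 reads in every library for 5 of the 36 genes, a difference smaller than the intervals given was not detectable.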
